A study of Mus musculus with 35 samples.

Results

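The genes described here encode the plasminogen activators and their nearest partners that were chosen by name, 4 of the 53465 genes counted in the series: Plau (urokinase, uPA), Plat (tissue plasminogen activator, tPA), Plaur (the urokinase receptor, uPAR) and Serpine2 (protease nexin-1, a serpin that inhibits both activators as well as thrombin). Each symbol had a single row. In the GRCm38 build, Plau lay on chromosome 14 from 20836660 to 20843385 on the plus strand, and Plat on chromosome 8 from 22757727 to 22782844 on the plus strand. Plaur lay on chromosome 7 from 24462484 to 24475968 on the plus strand, and Serpine2 on chromosome 1 from 79794197 to 79861180 on the minus strand.

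The data were 35 bulk RNA-seq libraries of mouse pancreatic ductal adenocarcinoma cells, which were grown in nude mice and sorted by FACS for the red fluorescent reporter mKate2. The cell lines came from primary tumors of KC-shSmad4 mice (Ptf1aCre, the rtTA3-mKate2 allele RIK, and a doxycycline-inducible shRNA against Smad4 at the Col1a1 locus, on a mixed C57BL/6J and 129 background), so every group carried the hairpin cassette, and the Ptf1a promoter drove Cre in the pancreatic lineage. Hosts were female Foxn1nu mice of 6 to 8 weeks, which lack T cells but retain myeloid cells and fibroblasts. Cells were injected into the pancreas, into the spleen to seed the liver, or into the tail vein to seed the lungs, and doxycycline (Dox) was withdrawn after 4, 5 and 6 weeks respectively in the groups labelled Smad4 on, while groups labelled Smad4 off stayed on Dox. Cells were collected 7 or 14 days later. On day 7 there were 3 labelled-off and 2 labelled-on pancreas libraries, 2 and 3 from liver, and 4 and 2 from lung. Day 14 gave 2 and 3, 3 and 3, and 4 and 4 libraries for the same organs. The labels do not say which cell line each library came from. Injection route, weeks of growth and organ changed together and cannot be told apart.

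Plasminogen circulates as an inactive zymogen, and uPA and tPA cut it into plasmin, a broad protease that dissolves fibrin and helps to degrade extracellular matrix. uPAR holds uPA at the cell surface, which concentrates plasmin formation at the edge of migrating cells, and serpins stop the activators by forming covalent complexes that uptake receptors then clear. In pancreatic carcinoma, uPA and uPAR are known for high expression, and tPA for binding annexin A2 on the tumor cells.

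Library totals ranged from 11885461 to 43571007 counts, and no member fell below 113 counts in any library. Smad4 mRNA went against the labels. It lay between 14.8 and 22.4 CPM (counts scaled to library size by TMM, here and throughout) in the 17 libraries labelled on and between 69.9 and 143 CPM in the 18 labelled off, so directions below are given as labelled on against labelled off and say nothing of which group had more Smad4 activity. The labelled-off liver library of replicate 2 on day 7 was the only paired-end library and stood apart from the other liver libraries. Its fibroblast markers summed to 35780 CPM, where the other 10 liver libraries had 255 to 4306 CPM, and its ductal markers (keratins, Epcam and Sox9) summed to 3885 CPM, within the pancreas range, against 11767 to 15772 CPM. Its acinar markers summed to 313 CPM, where the other liver libraries had at most 16.9 CPM. Whether its organ label is right was not tested. It is kept under that label, and results that rest on it are also given without it. Ductal markers were present in all pancreas (2478 to 7362 CPM) and lung libraries (5596 to 14162 CPM). In the pancreas, fibroblast markers summed to more, 8783 to 24253 CPM, and acinar markers to 618 to 2769 CPM. Counts on mt-Co3 were present in 10 libraries, of which 4 were from liver, 6 from lung and 0 from pancreas. No 2 libraries held identical counts.

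RefSeq promoter sequence was at hand for 2 of the 4 members, Plaur and Serpine2. It is shown because SMAD4, KLF and RUNX factors, which the study followed, and AP-1, a classical activator of urokinase receptor genes, bind such sequence. Each line gives 200 bases of GRCm38.p6, from 250 to 51 bases before the annotated start and in the direction of transcription. Capitals mark matches on either strand to an AP-1 site (TGANTCA), a SMAD box (CAGAC), a GC box as read by SP and KLF factors (GGGCGG) or a RUNX site (TGTGGT).
Plaur (chr7:24462233-24462432, plus strand): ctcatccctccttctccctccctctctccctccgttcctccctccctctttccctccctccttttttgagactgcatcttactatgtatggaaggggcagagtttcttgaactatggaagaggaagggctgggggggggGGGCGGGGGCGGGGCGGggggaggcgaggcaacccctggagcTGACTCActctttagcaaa
Serpine2 (chr1:79858716-79858915, minus strand): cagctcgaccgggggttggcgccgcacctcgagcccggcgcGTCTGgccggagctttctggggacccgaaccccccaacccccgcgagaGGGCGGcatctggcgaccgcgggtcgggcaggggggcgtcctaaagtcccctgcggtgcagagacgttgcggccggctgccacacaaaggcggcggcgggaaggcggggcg

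The Plaur window held 1 AP-1 match, which began 69 bases before the start, and 3 GC boxes, counting overlapping copies separately. The Serpine2 window held 1 SMAD box and 1 GC box. AP-1 matches occurred in 5.57% of the 32851 windows of the same length, SMAD boxes in 35.8%, GC boxes in 24.6% and RUNX sites, of which neither window had one, in 11.6%. Of the bases shown, 60.0% in Plaur and 75.5% in Serpine2 were G or C. The Serpine2 window lies inside the span of the gene, because 1 annotated transcript begins farther upstream. The matches describe letters only.

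The urokinase receptor was the most abundant of the 4 transcripts and the nexin the least. Per kilobase of exon, the level of Plaur averaged 126 ± 55.6 CPM per kb (SD, n = 35 libraries) and that of Plat 51.5 ± 18.1 CPM per kb. Plau averaged 40.3 ± 28.6 CPM per kb and Serpine2 3.32 ± 1.94 CPM per kb. The order of the abundant 3 depended on the organ. In the pancreas, Plau (68.6 ± 27.8 CPM per kb, n = 10), Plaur (64.0 ± 9.20) and Plat (56.2 ± 11.5) lay within one another's spread. In the lungs, Plaur reached 137 ± 35.02 CPM per kb (n = 14), while Plau had 16.3 ± 4.24 CPM per kb, and the highest Plau library (23.5) lay below the lowest Plaur library (87.1). In the liver, Plaur stood at 169 ± 52.7 CPM per kb (n = 11) against 45.0 ± 20.7 CPM per kb for Plau. In lung tumors receptor mRNA was therefore far above ligand mRNA per length, while in pancreatic tumors the ranges overlapped.

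Between organs, Plau was lower in lung than in pancreatic tumors, Plaur was higher in both liver and lung, and Serpine2 was lower in the liver. Among labelled-off libraries, 2 of 4 members passed between liver and pancreas, 2 of 4 between lung and pancreas and 1 of 4 between liver and lung, where 8.76%, 18.4% and 3.94% of 15677 genes passed. Among labelled-on libraries, 3 of 4 passed between liver and pancreas, 2 of 4 between lung and pancreas and 2 of 4 between liver and lung, where 22.2%, 13.6% and 10.4% of 15745 genes did. The contrasts of 1 label share libraries and a fit. In bulk libraries, fewer cells of a type and less RNA per cell cannot be told apart. With only the libraries that lacked mt-Co3 counts, an alternative chosen after seeing the data, 6 of these 12 calls did not pass. These were Serpine2 in liver against pancreas (off) and liver against lung (on), Plaur in lung against pancreas in both labels, Plat in liver against pancreas (on) and Plau in liver against lung (off).

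Plau, which encodes the secreted ligand of the receptor, was highest in the pancreas and lowest in the lungs. In the pancreas it measured 98.5, 333 and 136 CPM in the labelled-off libraries of day 7, 162 and 170.4 CPM in the labelled-on libraries of day 7, 183 and 149.8 CPM in those labelled off on day 14, and 154, 105 and 131 CPM in those labelled on on day 14. In the lungs it measured 28.1, 55.5, 25.9 and 44.9 CPM (off, day 7), 51.1 and 24.7 CPM (on, day 7), 29.8, 43.3, 34.2 and 42.7 CPM (off, day 14) and 45.9, 41.0, 28.2 and 46.2 CPM (on, day 14). All 14 lung libraries therefore lay below all 10 pancreas libraries. The liver libraries lay between, at 66.6 and 114 CPM (off, day 7), 208, 147 and 131 CPM (on, day 7), 58.6, 131 and 81.8 CPM (off, day 14) and 129, 48.6 and 56.0 CPM (on, day 14), and overlapped both other organs. Plau was lower in lungs than in pancreas by log2 fold changes of -2.22 ± 0.27 (SE, edgeR quasi-likelihood test, adjusted p = 4.14e-05) among labelled-off libraries and -1.82 ± 0.28 (adjusted p = 0.000281) among labelled-on libraries. It was higher in liver than in lungs by 1.24 ± 0.27 (adjusted p = 0.0128) and 1.41 ± 0.28 (adjusted p = 0.00274). The former was 1.14 (adjusted p = 0.0270) without the paired-end library and did not pass with only libraries that lacked mt-Co3 counts (1.21, adjusted p = 0.0536). Against the pancreas, the liver values were -0.98 ± 0.31 (adjusted p = 0.0428, under the required fold change of 2) for labelled-off and -0.41 ± 0.28 (adjusted p = 0.263) for labelled-on libraries. Without the paired-end library the labelled-off value was -1.10 and passed (adjusted p = 0.0268).

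Plaur ran the other way, with higher levels in both metastatic sites than in the pancreas. Pancreas libraries measured 180.5, 179 and 182 CPM (off, day 7), 128 and 130.3 CPM (on, day 7), 159.7 and 160.1 CPM (off, day 14) and 197, 195 and 164 CPM (on, day 14). Liver libraries measured 507 CPM and, in the paired-end library, 206 CPM (off, day 7), then 562, 473 and 531 CPM (on, day 7), 451, 441 and 396 CPM (off, day 14) and 643, 466 and 189 CPM (on, day 14). Lung libraries measured 228, 481, 247 and 324 CPM (off, day 7), 330.2 and 469 CPM (on, day 7), 371, 362, 517 and 348 CPM (off, day 14) and 302, 282, 468 and 295 CPM (on, day 14). Every lung library exceeded every pancreas library, and of the 11 liver libraries only labelled-on replicate 3 of day 14 (189 CPM) fell within the pancreas range. The log2 fold change of liver over pancreas was 1.18 ± 0.24 (adjusted p = 0.00645) among labelled-off and 1.51 ± 0.26 (adjusted p = 0.000251) among labelled-on libraries. That of lung over pancreas was 1.04 ± 0.22 (adjusted p = 0.00187) and 1.13 ± 0.26 (adjusted p = 0.00416). Liver and lung did not differ past the threshold, at 0.14 ± 0.21 (adjusted p = 0.776) and 0.38 ± 0.24 (adjusted p = 0.288). The labelled-off contrasts were close to the required fold change. The liver value was 1.36 without the paired-end library and 0.96 when labelled-off liver replicate 1 of day 7 was left out, and the lung value ranged from 0.93 to 1.13 and stayed called in 14 of 18 refits (not without labelled-off lung replicate 2 of day 7, lung replicate 3 of day 14, or either pancreas library of day 14).

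**Figure D1:**
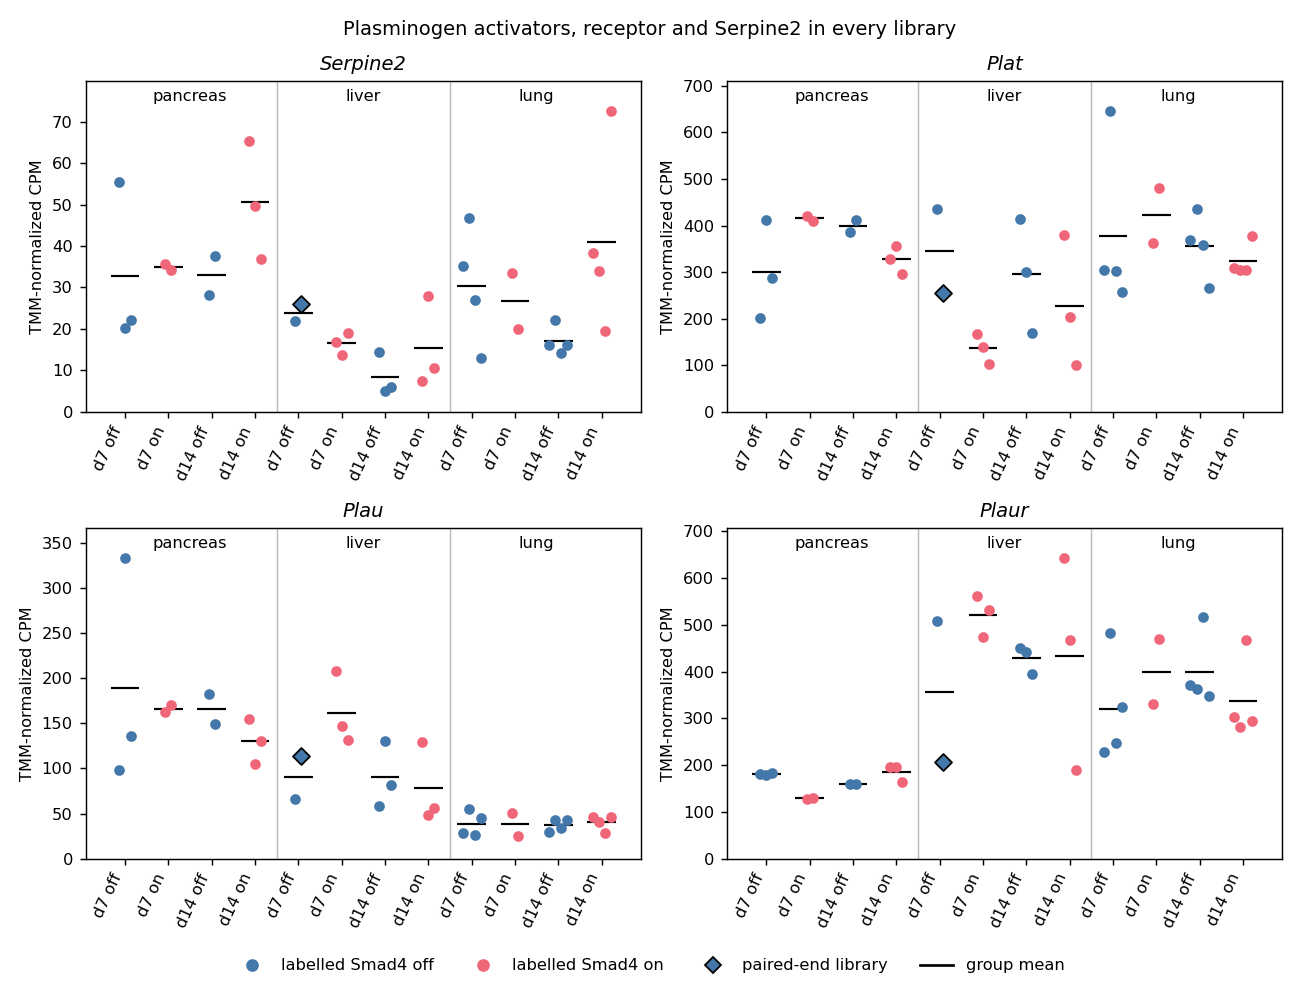
TMM-normalized CPM of each member (y axes, linear from 0) in every library, grouped by organ, day (d7, d14) and label (x axis); points are libraries, black lines are group means and the diamond is the paired-end liver library. Plau points of the lungs (24.7 to 55.5 CPM) all lie below those of the pancreas (98.5 to 333 CPM), and Plaur points of the lungs (228 to 517 CPM) all lie above those of the pancreas (128 to 197 CPM).

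Serpine2, the inhibitor, was lowest in the liver. Liver libraries measured 21.9 and 26.02 CPM (off, day 7), 16.9, 13.8 and 19.1 CPM (on, day 7), 14.4, 4.96 and 5.91 CPM (off, day 14) and 7.45, 28.0 and 10.5 CPM (on, day 14). Pancreas libraries measured 55.6, 20.2 and 22.2 CPM (off, day 7), 35.6 and 34.3 CPM (on, day 7), 28.2 and 37.6 CPM (off, day 14) and 65.5, 49.7 and 36.8 CPM (on, day 14). Among labelled-on libraries, all 5 pancreas values were above all 6 liver values, whereas the labelled-off ranges overlapped. Lung libraries spanned 13.0 to 46.8 CPM (off, day 7), 19.9 and 33.5 CPM (on, day 7), 14.2 to 22.1 CPM (off, day 14) and 19.4 to 72.6 CPM (on, day 14), a range that covered most values of both other organs. The log2 fold change of liver against pancreas was -1.44 ± 0.35 (adjusted p = 0.00374) among labelled-on libraries, a call kept in all 17 refits that left out a library. Among labelled-off libraries the difference was -1.20 ± 0.39 (adjusted p = 0.0494), kept in 4 of 18 such refits (those without day 7 pancreas replicate 2 or 3, liver replicate 2 or lung replicate 4) and lost without a filter on low counts (-1.19, adjusted p = 0.113). Liver against lung gave -1.11 ± 0.34 (adjusted p = 0.0310) among labelled-on libraries, kept in 12 of 17 refits. It was lost without liver replicate 2 or lung replicate 1 of day 7, or liver replicate 1 or 3 or lung replicate 4 of day 14, and stood at -0.85 without the last, the highest Serpine2 library (72.6 CPM). Liver against lung among labelled-off libraries (-0.70 ± 0.36, adjusted p = 0.278) and lung against pancreas in either label (-0.50 ± 0.35, adjusted p = 0.280; -0.32 ± 0.35, adjusted p = 0.505) did not pass.

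Plat, the fibrin-dependent activator, passed in 1 of the 6 organ contrasts. Its levels in pancreas (351 ± 72.0 CPM, SD, n = 10) and lungs (362 ± 103 CPM, n = 14) overlapped almost fully, with a log2 difference of 0.11 ± 0.26 (adjusted p = 0.763) among labelled-off and -0.03 ± 0.28 (adjusted p = 0.940) among labelled-on libraries. In the liver it averaged 315 ± 111 CPM (n = 5) in labelled-off and 182 ± 104 CPM (n = 6) in labelled-on libraries. The labelled-on liver libraries measured 168, 139 and 103 CPM on day 7 and 379, 204 and 101 CPM on day 14, so that 5 of 6 lay below all pancreas (296 to 420.2 CPM) and lung (304 to 481 CPM) libraries with that label. Against the pancreas their log2 fold change was -1.03 ± 0.28 (adjusted p = 0.00747), a call lost in 5 of 17 refits, those without either pancreas library or liver replicate 2 or 3 of day 7 (-0.91 without the latter) or liver replicate 3 of day 14, and against the lungs -0.997 ± 0.27 (adjusted p = 0.0160), just short of it. Labelled-off liver libraries did not differ past the threshold from pancreas (-0.10 ± 0.29, adjusted p = 0.846) or lung (-0.21 ± 0.26, adjusted p = 0.714).

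**Figure D2:**
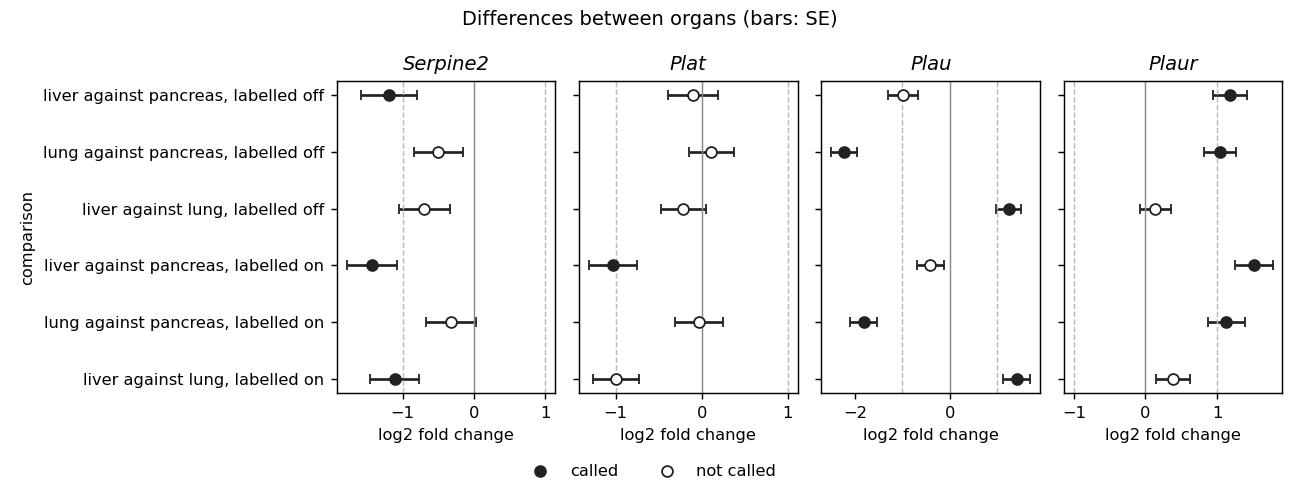
Log2 fold changes between organs (x axis) for each member, from the edgeR fits of labelled-off and labelled-on libraries (y axis); bars are SE, filled points were called (fold change over 2, adjusted p under 0.05), dashed lines mark log2 values of -1 and 1. Plau is negative against the pancreas and positive for liver against lung, and Plaur is positive against the pancreas for both sites.

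Fibroblast markers moved with the organ as well. The 7 markers (Col1a1, Col1a2, Col3a1, Dcn, Lum, Pdgfra, Pdgfrb) summed to 8783 to 24253 CPM in the pancreas, 255 to 4306 CPM in the single-end liver libraries and 159 to 1988 CPM in the lungs, and 4 of the 7 were higher in every pancreas library than in every other single-end library. None of the 7 was at 0 in any library. Acinar markers summed to 618 to 2769 CPM in the pancreas and were at most 16.9 CPM in the single-end liver and lung libraries and 313 CPM in the paired-end library, and lung epithelial markers summed to 64.6 to 500.2 CPM in the lungs and at most 1.72 CPM elsewhere. Ptprc, which marks leukocytes, did not exceed 16.1 CPM. Macrophage markers summed to 64.2 to 171 CPM in the pancreas, 16.6 to 153 CPM in the liver and 34.3 to 354 CPM in the lungs. Neutrophil markers summed to 1.97 to 10.5 CPM, 0.785 to 254 CPM and 2.38 to 42.0 CPM in the same order. Among the liver libraries with the highest fibroblast sums, Plaur measured 206 CPM in the paired-end library, 441 CPM in labelled-off replicate 2 of day 14 (4306 CPM of fibroblast markers) and 189 CPM in labelled-on replicate 3 of day 14 (3000 CPM). The cells were sorted for mKate2, and the part of other cells in the organ differences was not tested.

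**Figure D3:**
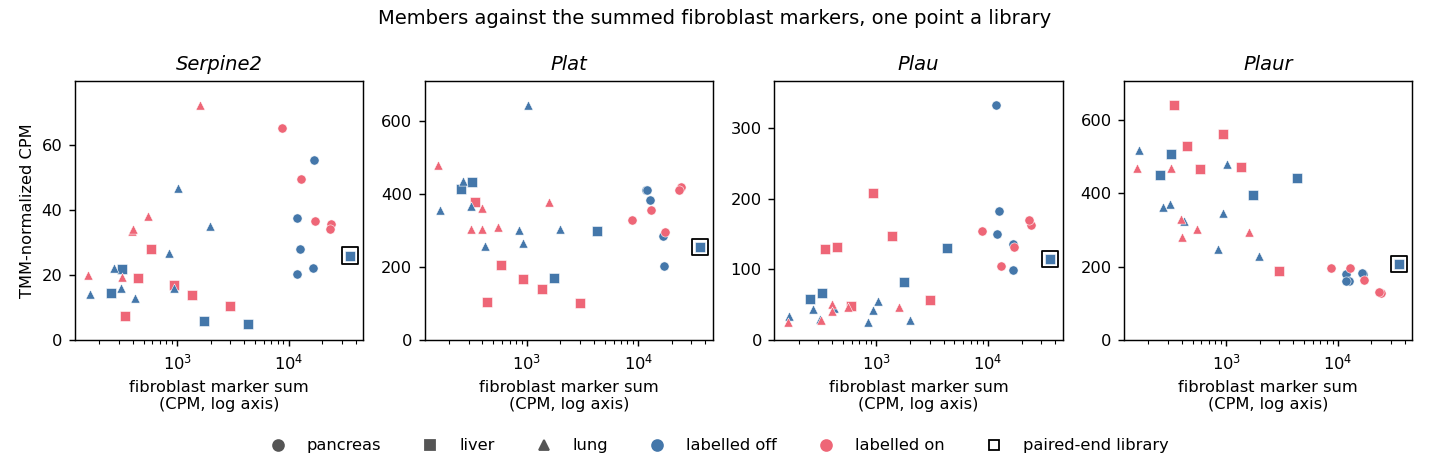
CPM of each member (y axes, linear from 0) against the summed CPM of 7 fibroblast markers (x axis, log scale), with 1 point for each of 35 libraries; shapes are organs, colors are labels and the open square marks the paired-end liver library. Pancreas libraries (8783 to 24253 CPM on the x axis) carry low Plaur and high Plau, and the paired-end liver library (35780 CPM) lies beside them.

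The comparison of labels sets libraries labelled on, for which Dox withdrawal is stated, against those labelled off, with the reservation on Smad4 mRNA given above. No member passed the test in any of the 6 comparisons of labelled on with labelled off within an organ and day, where 1.33% (pancreas), 0.444% (liver) and 0% (lung) of all genes passed on day 7 and 4.64%, 0% and 0.0271% on day 14. No member passed with both days in a fit, where 4.11% (pancreas), 6.08% (liver) and 0.176% (lung) of genes passed. At an unadjusted p under 0.05 in edgeR, the members counted 2 (liver) and 1 (pancreas) on day 7, 2 (pancreas) and 1 (lung) on day 14, and 1 for the liver over both days. Of all genes, 4340 of 16007 and 3340 of 14439, 4075 of 14234 and 1485 of 14751, and 4655 of 16221 were below that p in the same comparisons. DESeq2 called 1 member in day 7 livers, 1 in day 14 lungs, and 0 in the other 7 comparisons. Where no gene passed, 793 in the lungs on day 7 and 1447 in the liver on day 14 had an unadjusted p under 0.05 in edgeR, and DESeq2 called 112 and 339. The within-day comparisons rest on as few as 2 libraries a group. Groups described below as without overlap are descriptive, because the share of all genes with such a gap was not counted.

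Among differences of more than 2-fold, Plat in the liver on day 7 had the lowest adjusted p. The labelled-off libraries measured 435 and, in the paired-end library, 255 CPM, and the labelled-on libraries 168, 139 and 103 CPM. The groups did not overlap. The sum of 6 hepatocyte markers moved with the label, at 83.1 and 256 CPM in the labelled-off and 1018 to 1046 CPM in the labelled-on libraries. Most of it was Apob, with a median of 635 CPM in the liver but also 284 CPM in the lungs and 88.0 CPM in the pancreas. The other markers reached 111 CPM (Apoa1), 41.2 CPM (Ttr), 16.7 CPM (Alb), 11.9 CPM (Hp) and 2.14 CPM (Cyp2e1) in the liver. Medians in liver, lung and pancreas were 15.0, 5.27 and 0.119 CPM for Apoa1 and 9.28, 0.105 and 0.146 CPM for Alb. Unlike the others, Hp had a higher median in the lungs (10.7 CPM) than in the liver (3.30 CPM). The part of hepatocytes was not tested. The log2 fold change was -1.42 ± 0.34 (edgeR, adjusted p = 0.0841), and without the paired-end library -1.77 ± 0.30 (adjusted p = 0.0437), which leaves a single labelled-off library whose spread is assumed to equal that of the others. DESeq2 gave the same fold change with an adjusted p of 0.00669, and 1 fit of all 12 groups gave -1.34 ± 0.41 (adjusted p = 0.0173). These alternatives also passed far more of all genes, 4.98% without the paired-end library, 16.1% with DESeq2 and 17.6% with the fit of all groups. Over the alternatives the adjusted p reached 0.246, with mouse number as a block (edgeR). With only libraries that lacked mt-Co3 counts a single labelled-off library was left, and that adjusted p is not given. On day 14 the liver groups overlapped, at 415, 299 and 169.9 CPM (off) and 379, 204 and 101 CPM (on), and the fold change was -0.43 ± 0.52 (adjusted p = 0.850). With both days in the fit it was -0.86 ± 0.38 (adjusted p = 0.166).

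Whether the label difference of Plat varied between organs was tested directly. The difference in liver minus that in pancreas was -0.96 ± 0.42 (adjusted p = 0.283) and in liver minus that in lung -0.85 ± 0.38 (adjusted p = 0.208). No member passed in these contrasts or in lung minus pancreas, where 0.817% (liver minus pancreas), 1.93% (liver minus lung) and 0.00587% (lung minus pancreas) of 17023 genes did. At an unadjusted p under 0.05 in edgeR, 1, 1 and 0 members were below the threshold, as were 2437, 3495 and 1293 of all genes, and DESeq2 called 0 in each.

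The other 3 members in the liver on day 7 moved less. Plau measured 66.6 and 114 CPM in labelled-off and 208, 147 and 131 CPM in labelled-on libraries, which did not overlap (0.77 ± 0.34, adjusted p = 0.220). Serpine2 measured 21.9 and 26.02 CPM against 16.9, 13.8 and 19.1 CPM, again without overlap (-0.61 ± 0.23, adjusted p = 0.165). These gaps rest on 2 labelled-off and 3 labelled-on libraries and are descriptive. Plaur gave 0.46 ± 0.42 (adjusted p = 0.545), a value set by the paired-end library: without it the fold change was -0.06 ± 0.22, and without the other labelled-off library 1.32, which passed.

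Serpine2 had its largest label difference in the lungs on day 14. The labelled-off libraries measured 16.0, 22.1, 14.2 and 16.0 CPM and the labelled-on libraries 38.3, 34.1, 19.4 and 72.6 CPM. Of the latter, 3 of 4 were above all labelled-off libraries, and replicate 3 fell within their range. Macrophage markers summed to 104 to 354 CPM in the labelled-on and 52.3 to 157 CPM in the labelled-off libraries, with overlap. Replicate 4, with the highest Serpine2, had the highest fibroblast sum of the 8, at 1596 CPM. The part of these cells was not tested. The log2 fold change was 1.27 ± 0.36 (edgeR, adjusted p = 0.278). DESeq2 called it (1.27 ± 0.36, adjusted p = 0.0254) along with 1.48% of all genes. With mouse number as a block, which raised the share of genes called from 0.0271% to 0.684%, it was 1.12 ± 0.30 (adjusted p = 0.153), and over the other alternatives the adjusted p reached 0.514. On day 7 the lung value was -0.17 ± 0.46 (adjusted p = 0.998), with overlapping groups, and over both days 0.73 ± 0.37 (adjusted p = 0.575). In the pancreas Serpine2 measured 28.2 and 37.6 CPM (off) and 65.5, 49.7 and 36.8 CPM (on) on day 14, a difference of 0.64 ± 0.27 (adjusted p = 0.189).

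Plaur in the pancreas was measured with little spread, and its label difference had opposite signs on the 2 days, a change that was itself not tested. On day 7 the labelled-on libraries (128 and 130.3 CPM) lay below the labelled-off libraries (180.5, 179 and 182 CPM), by -0.47 ± 0.09 (adjusted p = 0.0576). On day 14 they lay above, at 197, 195 and 164 CPM against 159.7 and 160.1 CPM (0.23 ± 0.10, adjusted p = 0.159). Neither pair of groups overlapped. Fibroblast markers were higher in the labelled-on libraries of day 7 (23296 and 24253 CPM, against 11803 to 16852 CPM). Acinar markers were lower (618 and 836 CPM, against 1715 to 2738 CPM), as were macrophage markers (64.2 and 79.7 CPM, against 92.6 to 121 CPM). The part of these cells was not tested. Over both days the value was -0.13 ± 0.13 (adjusted p = 0.541). In the lungs Plaur differed by 0.35 ± 0.36 (adjusted p = 0.998) on day 7 and -0.25 ± 0.21 (adjusted p = 0.787) on day 14. On day 14 Plaur was lower in the labelled-on library of all 4 same-numbered pairs, and the value with the block was -0.27 ± 0.11 (adjusted p = 0.300). Some different-numbered libraries correlated as strongly there, so the numbers do not establish pairs. Plau in the lungs differed by -0.03 ± 0.41 (adjusted p = 0.999) and 0.10 ± 0.18 (adjusted p = 0.944). Plat in the pancreas on day 14 measured 385 and 411 CPM (off) and 329, 356 and 296 CPM (on), without overlap, a difference of -0.26 ± 0.10 (adjusted p = 0.129).

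**Figure D4:**
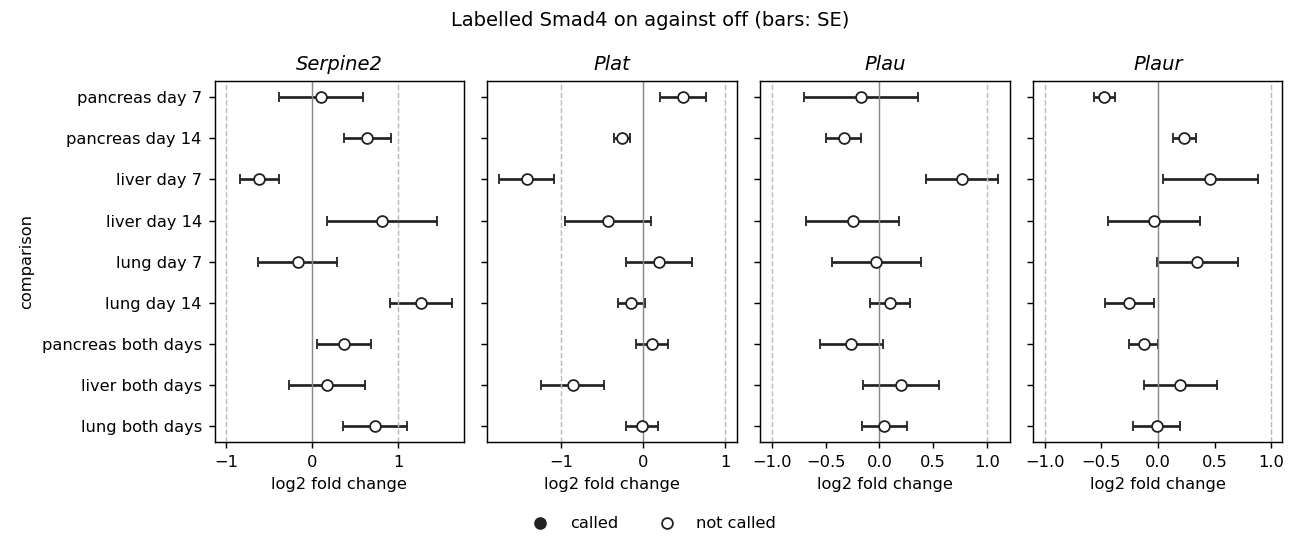
Log2 fold changes of libraries labelled on over those labelled off (x axis) for each member in each organ and day and over both days (y axis); bars are SE and open points were not called. All points are open, and the farthest from 0 are Plat for day 7 livers (-1.42) and Serpine2 for day 14 lungs (1.27).

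Days were compared with label in the fit, which does not test changes of the label difference. Members that did not pass were not shown to be equal. Serpine2 in labelled-off livers averaged 23.9 CPM on day 7 (21.9 CPM without the paired-end library) and 8.44 CPM on day 14. Plau in labelled-on livers averaged 162 and 77.8 CPM. In livers of the opposite label the means were 16.6 and 15.3 CPM for Serpine2 and 90.3 and 90.4 CPM for Plau. Between day 14 and day 7, with label in the fit, no member passed in pancreas, liver or lung, where 0.746%, 0% and 0% of genes passed in edgeR. Also no member had an unadjusted p under 0.05 in edgeR, and DESeq2 called 0 members. Of all genes, 394 in the liver and 736 in the lungs had such a p, and DESeq2 called 15 and 8. The widest value was -0.74 ± 0.44 for Serpine2 in the liver (adjusted p = 1.00). Ordered by mean over the 12 groups, all 11 neighbouring pairs overlapped for Serpine2 and for Plat, from 50.7 CPM (pancreas, on, day 14) to 8.44 CPM (liver, off, day 14) and from 422 CPM (lung, on, day 7) to 136 CPM (liver, on, day 7). For Plau, 10 of 11 overlapped, and the 1 gap fell between the lowest liver group (77.8 CPM, on, day 14) and the highest lung group (40.3 CPM, on, day 14). For Plaur, 8 of 11 overlapped, and the gaps fell between the lowest lung group (320.1 CPM, off, day 7) and the highest pancreas group (185 CPM, on, day 14) and between pancreas groups.

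The rest of the plasminogen and coagulation system was followed through a list of 32 genes. The zymogen gene Plg, which hepatocytes express, had 3 counts or fewer in 27 of 35 libraries, and F12, Klkb1, F2, Cpb2, Serpina5 and Serpine3 in 29 to 35. In label comparisons few listed genes passed. Within an organ and day, 1 of 21 tested rose and 1 fell in the pancreas on day 14, and 0 of 20 to 25 passed in the other 5 comparisons, with a list median between -0.83 (liver, day 7) and 0.03 (pancreas, day 7) where the median of all genes lay between -0.06 and 0.02. In those 5, the listed genes with an unadjusted p under 0.05 in edgeR numbered 13 (liver, day 7), 3 (pancreas, day 7), 2 (lung, day 7), 6 (liver, day 14) and 6 (lung, day 14), and DESeq2 called 11, 0, 0, 1 and 1. Of all genes, 4340 of 16007, 3340 of 14439, 793 of 15193, 1447 of 14947 and 1485 of 14751 had such a p. In the same order, DESeq2 called 2887 of 17887, 539 of 13953, 112 of 15339, 339 of 14096 and 214 of 14437 genes. Without the paired-end library, 2 rose and 2 fell of 26 listed genes in the liver on day 7, where 859 of 17266 genes passed. The pair in the pancreas was Hgfac, a serine protease that activates hepatocyte growth factor (1.35 ± 0.20, adjusted p = 0.00897), and Tfpi, which inhibits the tissue factor complex (-1.04 ± 0.18, adjusted p = 0.0102).

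Over both days, 1 rose and 2 fell of 25 in the liver (list median -0.70, all genes -0.01), where 6.08% of all genes passed. Without the paired-end library 0 rose and 1 fell of 26, where 606 of 16766 genes passed. List medians were not computed without that library, here or in any other comparison. In the lungs 1 fell of 20 (0.176% of all genes), and in the pancreas 1 rose of 21 (4.11% of all genes; Hgfac, 1.06 ± 0.22, adjusted p = 0.0122, kept in 6 of 10 refits that left out a library, with values from 0.93 to 1.26, and not with mouse number as a block, adjusted p = 0.139). F2r, which encodes the thrombin receptor PAR1, fell in the liver (-2.48 ± 0.38, adjusted p = 0.0139). F2r averaged 349 ± 138 CPM (SD, n = 5) in labelled-off and 65.6 ± 23.0 CPM (n = 6) in labelled-on liver libraries, and the groups did not overlap. It also fell in the lungs, from 357 ± 102 CPM (n = 8) to 147 ± 26.1 CPM (n = 6), by -1.28 ± 0.19 (adjusted p = 0.0138), again without overlap. Serpinf2, which encodes the plasmin inhibitor of plasma, passed upward in the liver at levels of 0.115 ± 0.0664 and 0.464 ± 0.118 CPM, close to the limit of 3 counts, which was 0.0689 to 0.252 CPM depending on the library. It did not pass without the paired-end library. The hepatocyte sum, mostly Apob, was 83.1 to 489.9 CPM in the labelled-off and 672 to 1046 CPM in the labelled-on liver libraries. The part of hepatocytes was not tested.

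Between organs more of the list passed. Against the pancreas, 4 rose and 2 fell of 21 in labelled-off liver libraries, and 4 rose and 7 fell in labelled-off lung libraries. In labelled-on libraries 6 rose and 11 fell of 24 in the liver, and 3 rose and 9 fell in the lungs. Between liver and lung, 3 rose and 0 fell of 21 (off) and 3 rose and 4 fell of 24 (on). Without the paired-end library the labelled-off counts became 4 and 6 of 22 for liver against pancreas and 1 and 0 of 22 for liver against lung, where 2551 and 700 of 16058 genes passed. With that library the shares of all genes called were 8.76%, 18.4% and 3.94% (off) and 22.2%, 13.6% and 10.4% (on), in the order liver against pancreas, lung against pancreas and liver against lung. List medians were 0.09, -0.59 and 0.36 in the labelled-off contrasts (liver against pancreas, lung against pancreas, liver against lung) and -0.45, -0.39 and 0.15 in the labelled-on contrasts, where the median of all genes lay between 0.01 and 0.06.

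Those that were higher outside the pancreas included the membrane serine protease matriptase (St14), which can activate pro-urokinase, and the intracellular serpin PAI-2 (Serpinb2). St14 averaged 26.7 ± 9.59 CPM (SD, n = 5) in pancreas, 200.4 ± 46.9 CPM (n = 6) in liver and 63.5 ± 31.0 CPM (n = 6) in lung libraries labelled on, with a log2 fold change of 2.98 ± 0.35 for liver over pancreas (adjusted p = 9.88e-06). Serpinb2 averaged 18.0 ± 17.2 CPM (n = 8) in lung and 1.90 ± 0.721 CPM (n = 5) in pancreas libraries labelled off (3.28 ± 0.93, adjusted p = 0.0121). Tissue factor (F3), the trigger of coagulation, was higher in labelled-off lung libraries by 1.89 ± 0.30 (adjusted p = 0.000235). Those that were lower included Mrc2, the collagen uptake receptor that binds uPAR, at 321 ± 90.0 CPM (n = 5) in pancreas and 6.28 ± 3.495 CPM (n = 8) in lung libraries labelled off (-5.74 ± 0.85, adjusted p = 0.000149), and thrombomodulin (Thbd), at 158 ± 64.4 CPM and 9.19 ± 2.45 CPM in the labelled-on libraries (-4.06 ± 0.39, adjusted p = 4.44e-06). Mrc2 is also expressed by fibroblasts and Thbd by endothelium. In the paired-end liver library, Mrc2 reached 495 CPM, where the other labelled-off liver library of day 7 had 4.29 CPM, and the part of fibroblasts was not tested. The fibrinogen genes Fga, Fgb and Fgg averaged 0.913 to 1.61 CPM in labelled-on liver libraries and at most 0.0475 CPM in labelled-on pancreas libraries.

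**Figure D5:**
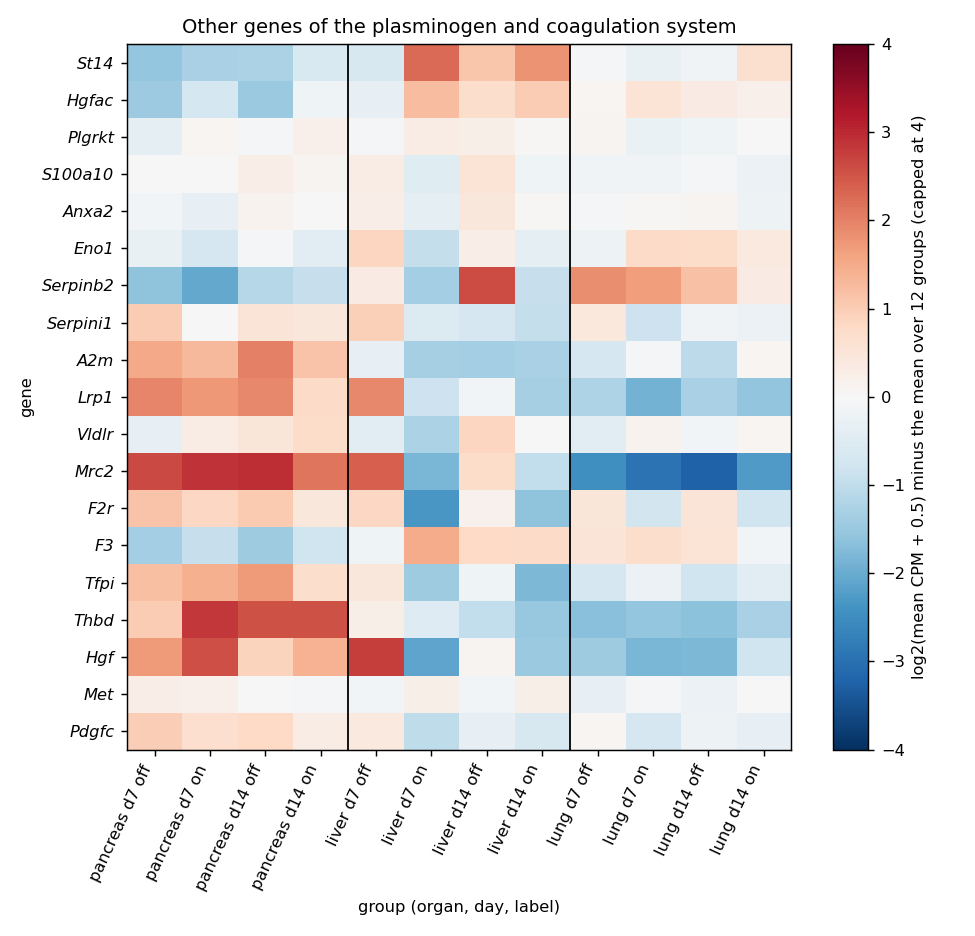
Group means of the listed genes described here that had a mean of at least 1 CPM (y axis) in the 12 groups (x axis); color is log2(mean CPM + 0.5) minus the mean of the gene over the groups. Mrc2, Lrp1, Hgf and Thbd are high in the pancreas, where St14 and F3 are low, and the liver group labelled off on day 7, which holds the paired-end library, shares part of the pancreas pattern.

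The genes whose pattern over the 35 libraries was most like that of each member were found by Pearson correlation of log2(CPM + 0.5) among 13534 genes with a mean of at least 1 CPM. The libraries share organ, depth and sorting differences, so these values are descriptive. Plaur was closest to Pcdh1 (r = 0.93), Epha2 (0.93) and Tuba4a (0.92), which encode a protocadherin, an ephrin receptor and an alpha tubulin. Plat was closest to the protease gene Ctsc (0.88), Plekho2 (0.85) and Gramd1a (0.84), and Plau to Artn (0.86), which encodes the neurotrophic ligand artemin, Lmo1 (0.85) and Usp2 (0.85). Serpine2 had the weakest neighbours, Abi3bp (0.72), the stem cell receptor gene Lgr5 (0.72) and Nsg1 (0.70). Without the paired-end library 11 of the 12 stayed among the nearest 3 of their member.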

How the data were processed

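RNA was measured in 35 libraries of sorted carcinoma cells (polyA, stranded TruSeq, 75-bp reads). Per the labels and the submitters' processing notes, the authors trimmed reads with Trimmomatic 0.36 after FastQC 0.11.5, aligned them with STAR 2.5.3a and deposited raw counts per gene from featureCounts 1.6.3, with GRCm38 coordinates. The strand setting of the counting is not given in the sources used here, so reads of overlapping genes cannot be told apart.

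From these counts, TMM-scaled CPM were computed and groups compared with the quasi-likelihood test of edgeR 4.0.16 (R 4.3.3, limma 3.58.1), robust, after filterByExpr (minimum count 10, minimum total 15). A gene was called where p, adjusted by Benjamini-Hochberg over all genes tested, was under 0.05 and the fold change exceeded 2. Labels were compared within organ and day, and within organ with day as a covariate. Organs were compared within a label with day as a covariate, and responses in 1 fit of all libraries. DESeq2 1.42.0 was an alternative. Other alternatives were DESeq2 size factors, no filter on low counts, a covariate for mt-Co3 counts, mouse number as a block, 1 fit of the 12 groups, and leaving out the paired-end or any other library. Scripts were tested on simulated data. Replicates carry a mouse number in their labels. Tables and plots used Python 3.11.15, pandas 2.3.3, numpy 2.4.6 and matplotlib 3.10.9.

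The members and gene lists were chosen with earlier results of these data known. Listed genes were named when called, up to 2 in each direction by size, and the 3 most similar genes of each member were named by r. Genes near the limit of 3 counts were given by level. An allele of the cell lines and a listed gene, which stays in the counts over the list, are not reported here. In each label comparison, same-numbered libraries were compared by the correlation of their deviations from the group means. Only the lungs on day 14 met the rule for pairing, with 4 pairs at 0.47 to 0.59. Some different-numbered libraries there reached 0.63 (off replicate 2, on replicate 1), 0.58 (off 1, on 2) and 0.59 (off 3, on 4). Others were negative, down to -0.66 (off 3, on 1). The numbers therefore do not establish pairs.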

Additional observations from a re-analysis of the deposited data

Results flagged for a closer look

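In the 12 groups of 4 libraries for a member, Dixon's test set 4 libraries apart from the others of their group, where chance gives about 5% of groups. These tests are not independent, because only lung groups held 4 libraries and the 4 members were measured in the same ones. The number set apart therefore does not measure how unusual the libraries are. Plat measured 646 CPM in labelled-off lung replicate 2 of day 7, where the other 3 libraries lay between 258 and 303 CPM, and 377 CPM in labelled-on lung replicate 4 of day 14, where the others lay between 304 and 309 CPM. Plaur measured 517 CPM in labelled-off lung replicate 3 of day 14 (others 348 to 371 CPM) and 468 CPM in labelled-on lung replicate 3 of day 14 (others 282 to 302 CPM). Both of these replicate 3 libraries were among the 10 with counts on mt-Co3.

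Plaur in the pancreas moved in opposite directions between labels on the 2 days, by -0.47 on day 7 and 0.23 on day 14 (edgeR, adjusted p = 0.0576 and 0.159). This difference between days was not tested.

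Among the listed genes, the label difference of 2 varied between organs. That of F2r, the thrombin receptor gene, was lower in the liver than in the pancreas by -1.99 ± 0.39 (edgeR, adjusted p = 0.0154), and by -1.83 (adjusted p = 0.0479) without the paired-end library. The call was kept in 33 of 35 refits that left out a library. Hgf, the gene of hepatocyte growth factor, differed between liver and lung by -4.31 ± 1.196 (adjusted p = 0.0461), but only by -2.18 (adjusted p = 0.270) without the paired-end library, and 13 of 35 refits kept the call. Hgf averaged 16.7 ± 28.7 CPM (SD, n = 5) in labelled-off and 1.01 ± 0.465 CPM (n = 6) in labelled-on liver libraries.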

How the results depend on the processing

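Of the log2 fold changes of the members under an alternative (refits without a library counted here for called values only), 624 kept their direction and side of the threshold, 40 lost the call, 13 gained it and 16 changed sign. Over all 1260 refits without a library, 74 changed sign, with values from -0.29 to 0.51, and 0 of these were of called values. In the liver on day 7, 1 member was called instead of 0 with DESeq2, no filter, the mt-Co3 covariate or the fit of all groups. Of all genes these called 2887 of 17887, 977 of 29248, 1022 of 16007 and 3097 of 17547, against 71 of 16007 in the main test. Alternatives that left a single labelled-off library are not counted here. In the lungs on day 14 DESeq2 called 1 member and 214 of 14437 genes. Between organs, the count for liver against pancreas among labelled-off libraries fell from 2 to 1 without a filter and with only libraries lacking mt-Co3 counts. That last restriction also lowered lung against pancreas from 2 to 1 in both labels, liver against lung from 1 to 0 (off) and from 2 to 1 (on), the latter also without a filter, and liver against pancreas (on) from 3 to 2, as did no filter and the mt-Co3 covariate. Leaving out each library gave 0 to 1 members in the liver on day 7, 0 to 3 in liver against pancreas (off), 1 to 2 in lung against pancreas (off), 2 to 3 in liver against pancreas (on) and 1 to 3 in liver against lung (on). The causes were not tested.

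Apart from refits without a library, the values that changed sign were as follows. With only libraries lacking mt-Co3 counts they were -0.0608 for Plaur in the liver on day 7, -0.21 for Plat and 0.48 for Plau in the lungs on day 7, 0.25 for Plaur in the liver on day 14, -0.0781 for Plau between days in the lungs, 0.17 for Plat in liver against pancreas (off) and -0.0214 for Plaur in the response of lung minus pancreas. With the mt-Co3 covariate they were 0.17 for Serpine2 in the lungs on day 7, 0.0040 for Plat in the lungs over both days, 0.0842 for Plat in liver against pancreas (off) and 0.14 for Plat in lung against pancreas (on). Without the paired-end library they were -0.0644 for Plaur in the liver on day 7, -0.0501 over both days, and 0.0058 for Serpine2 in the response of liver minus pancreas. The fit of all groups gave 0.0114 for Plaur in the liver on day 14. The mt-Co3 covariate could not be fitted in the pancreas, where no library had such counts.

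With mouse number as a replicate block, Plat in the lungs on day 7 gave -0.0297. No call of a member changed under the block, where the count was 0 in every label comparison. Of all genes, the block moved the calls in the lungs on day 14 from 4 to 108, in the pancreas over both days from 601 to 123 and in the liver over both days from 987 to 15, and it called 0 in the pancreas (192 without it) and the liver (71) on day 7. The fall of F2r was not called under the block in the liver (-2.22, adjusted p = 0.0771) and was in the lungs (-1.40, adjusted p = 0.0240). In the lungs on day 14 some different-numbered libraries correlated as strongly as same-numbered ones, so the numbers do not establish pairs. Elsewhere the libraries shared only a number.

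Over the alternatives, the calls among all genes ranged from 0 to 3496 in the liver on day 7, from 0 to 549 and from 16 to 1837 in the pancreas on days 7 and 14 (661 in the main test on day 14), from 20 to 187 in the lungs over both days (27), from 1130 to 2565 in liver against pancreas (off; 1373) and from 3486 to 6593 in the same contrast (on; 3494). Plain library totals moved levels by -0.23 to 0.16 on the log2 scale, and 1 of 48 group means by more than its SD (Plaur, pancreas, off, day 14, from 159.9 to 153.5 CPM). Depth limits Plg, F12, Klkb1 and the fibrinogen genes, which lay at or under 3 counts in many libraries.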
